A study of Homo sapiens with 2 samples.

Results

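The major histocompatibility complex (MHC) on the short arm of chromosome 6 was examined for sites of UTX and TAL1. The UTX sites are from Jurkat, a human leukaemia line of T cell origin (T cell acute lymphoblastic leukaemia, T-ALL) grown without treatment. The TAL1 sites are those of an earlier study, whose cells are not named here. UTX (KDM6A) is a histone demethylase: it takes methyl groups off lysine 27 of H3, a mark of silenced genes. TAL1, a transcription factor of the helix-loop-helix family, is switched on aberrantly in part of T-ALL. The members are every peak with at least 1 base between 29.6 and 33.4 Mb of chromosome 6 (hg19): 100 of the 17396 UTX peaks and 2 of the 2678 TAL1 peaks. Members were selected on peak position, and the region was proposed with the counts of both lists in view. Peak numbers, densities and the overlap of the lists are therefore descriptions without a test.

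The series held 2 chromatin immunoprecipitation libraries from untreated Jurkat cells. One was precipitated with a mixture of a home-made and a commercial antibody against UTX and the other, the mock, with an isotype IgG. The UTX library entered as its peak list, the mock was not analysed here, and the TAL1 list was taken by the submitters from an earlier study. Both lists give peak positions only and the UTX list comes from 1 library, so the depth behind a peak is unknown, no peak has a replicate error and width is the only measure of peak size.

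The MHC is one of the most gene-rich parts of the human genome and is divided into 3 classes. Class I carries the HLA genes whose products present peptides from inside the cell to CD8+ T cells, interspersed with many genes of unrelated function. Class II carries the HLA-DR, HLA-DQ and HLA-DP genes, which present peptides to CD4+ T cells and are transcribed mainly in professional antigen-presenting cells, together with genes of peptide loading and transport. Class III, between them, holds no HLA genes but cytokine, complement, heat shock and many housekeeping genes. By the bounds used here, class I ran from 29.6 to 31.5 Mb, class III from there to 32.15 Mb and class II from there to 33.4 Mb. No peak crossed a class boundary (0 of 100).

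An hg19 annotation was not used, so no peak is tied to a gene and the class names rest on coordinates alone. The gene order of RefSeq in another build (GRCh38.p14) gives the background. From HLA-F to MICB this order held 49 protein-coding genes, most of them not HLA genes: between HLA-E and HLA-C lie, among others, ABCF1, MDC1 (a DNA damage checkpoint mediator), TUBB (a beta-tubulin), FLOT1, IER3 (an immediate early gene), DDR1 (a collagen receptor) and POU5F1. From MCCD1 to NOTCH4 there were 59 such genes. They include LTA, TNF and LTB, which encode cytokines of the tumour necrosis factor family, HSPA1A and HSPA1B, which encode heat shock proteins, the complement genes C2, CFB, C4A and C4B, and EHMT2, which encodes a histone H3 lysine 9 methyltransferase. From HLA-DRA to HLA-DPB1 there were 18, among them the peptide transporter genes TAP1 and TAP2, the immunoproteasome genes PSMB8 and PSMB9 and the bromodomain gene BRD2. These orders run between named genes and were not matched to the bounds used here, so 49, 59 and 18 are not gene counts of the classes. Where HLA-DPB1 falls within the class II bounds was not determined, so genes near the peaks of the last part of class II may be missing from the order. Symbols of the gene lists chosen for the region were only looked up in that build. Entries existed for all 13 class II genes, 5 antigen processing genes, 6 class III cytokine and immune genes, 4 complement genes and 12 other class III genes. An entry says nothing about peaks at the gene. TAPBP, 1 of the 5 antigen processing genes, is not in the order from HLA-DRA to HLA-DPB1.

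The region was dense in UTX sites. Its 100 UTX peaks made 26.3 per Mb. The remainder of chromosome 6 had 902 peaks, or 5.41 per Mb, and the other chromosomes had 5.88 per Mb, taken from the first to the last peak of each. UTX peaks covered 50.1 kb, or 1.32% of the region, against 0.207% of the rest of the chromosome. Class III was the densest, with 32 peaks in 0.650 Mb (49.2 per Mb) and 2.31% of its bases in peaks. Class I held 42 peaks (22.1 per Mb) and class II 26 (20.8 per Mb), so these classes had similar densities, each still several times that of the rest of the chromosome.

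**Figure D1:**
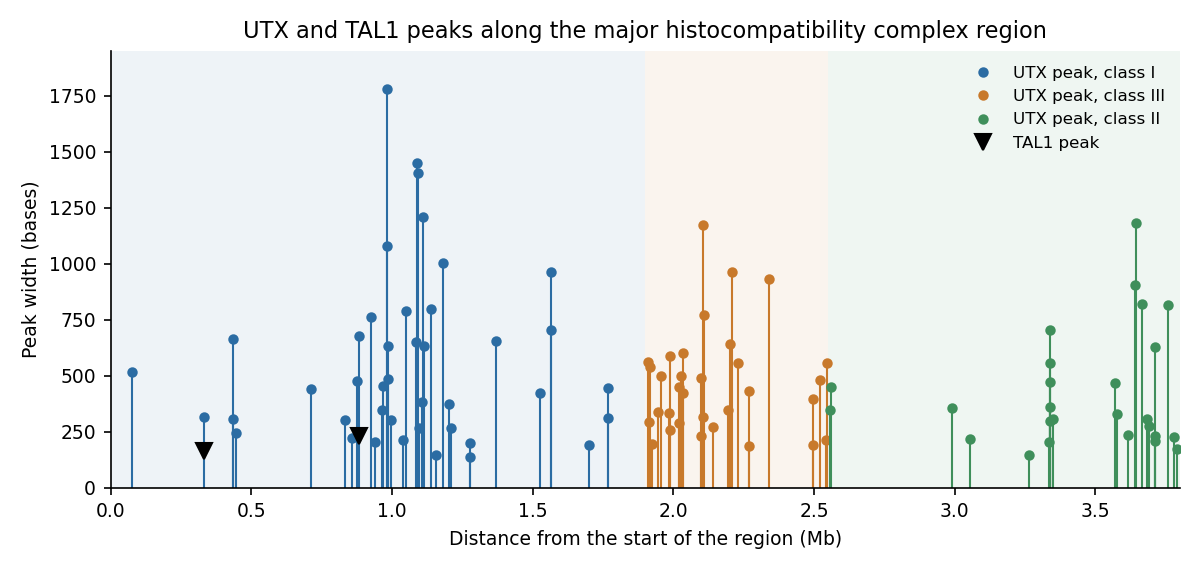
Each UTX peak of the region (dots on stems, coloured by class) and each TAL1 peak (triangles) by its distance from the start of the region in Mb (x axis) and its width in bases (y axis). The 2 TAL1 peaks lie in class I, and 6 of the 8 UTX peaks wider than 1 kb lie between 0.8 and 1.3 Mb.

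Same-length windows put these counts in the setting of the genome. Chromosomes were divided into 771 windows of 3.8 Mb, 1 of them the region; windows started at the first base of each chromosome, except on chromosome 6, where they were aligned to the region. The median window held 17 UTX peaks and 3 TAL1 peaks. By UTX count the region ranked 3, after a window at 64600001 to 68400000 on chromosome 11 (130 UTX and 5 TAL1 peaks) and the first window of chromosome 19 (110 and 3). A window at 72200001 to 76000000 on chromosome 17 came next with 99 UTX peaks and 9 TAL1 peaks. For class III, windows of 0.650 Mb outside the region held a median of 2 UTX peaks, and 5 of 4539 held 32 or more. For class I, 29 of 1549 windows of 1.90 Mb (1.87%) held 42 or more. For class II, 77 of 2358 windows of 1.25 Mb (3.27%) held 26 or more.

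**Figure D2:**
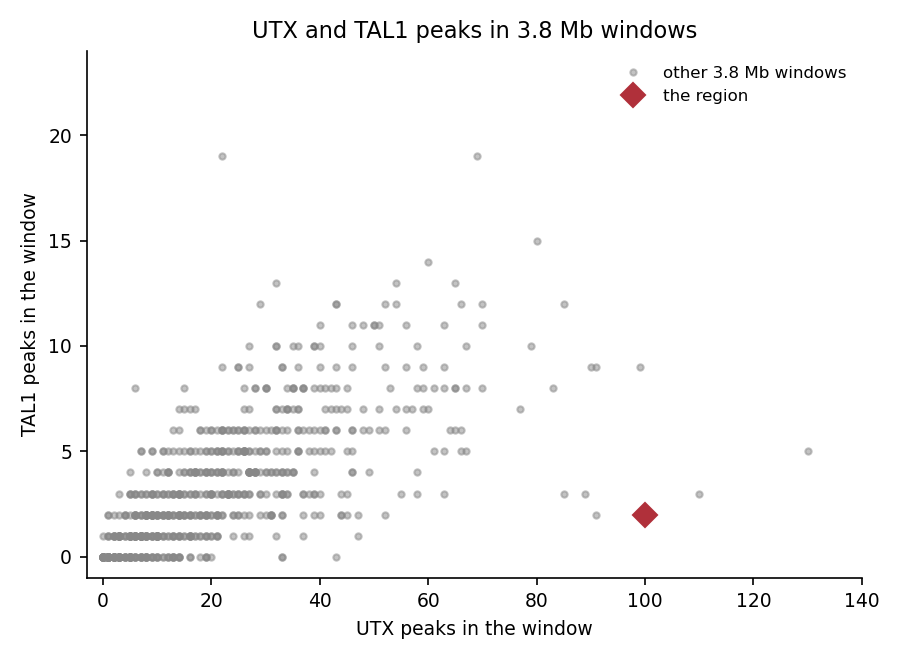
UTX peaks (x axis) and TAL1 peaks (y axis) in each of the 771 windows of 3.8 Mb, with the MHC region as a diamond and the other 770 windows as dots. The region, at 100 UTX and 2 TAL1 peaks, lies far to the right, near a window of chromosome 6 with 91 and 2. Its TAL1 count is close to the median of all windows (3) and below the median of other windows with 50 or more UTX peaks (8).

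TAL1 was called at 2 places in the region, both in class I and both within a UTX peak. The first TAL1 peak, at 29932701 to 29932864, was 164 bases wide and lay wholly inside the UTX peak at 29932622 to 29932936 (315 bases), which extended 79 bases to its left and 72 to its right. The centres were 3.5 bases apart, so the TAL1 peak sat in the middle of the UTX peak and took 52.1% of its length. This site stood alone: the neighbouring UTX peaks were 256 kb and 101 kb away. The second TAL1 peak, at 30484255 to 30484485, was 231 bases wide, above the upper quartile of the TAL1 list (188 bases). It lay wholly inside the UTX peak at 30483893 to 30484570 (678 bases), toward its right end, with 362 bases of UTX peak to the left and 85 to the right. Another UTX peak of 475 bases, at 30476913 to 30477387, lay 6.87 kb from this TAL1 peak and was the nearest UTX peak of the region without TAL1. Over the whole TAL1 list, 80.8% of peaks overlapped a UTX peak, and 2 of 2 is too few to set against that share.

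Seen from the UTX list, TAL1 was rare in the region. Counted per Mb, TAL1 peaks came to 0.526 in the region, against 0.881 on the rest of chromosome 6 and 0.905 over the list. By class this was 1.05 in class I, on 2 peaks, and 0 in class III and class II. The region held 26.3 UTX peaks per Mb against 5.88 over the list, so its share with TAL1 depends on both counts. Of its 100 UTX peaks, 2 overlapped a TAL1 peak (2.0%, 95% exact binomial interval 0.243 to 7.04%), against 12.1% of the whole list and 13.6% (123 of 902) on the rest of chromosome 6. In class I the share was 4.76% (2 of 42, interval 0.582 to 16.2%). Class III had 0 of 32 (interval 0 to 10.9%) and class II 0 of 26 (interval 0 to 13.2%). Another limit, of 3 counts for a count of 0, stands at 9.38% and 11.5%, and the upper ends of the intervals are the higher bounds. These intervals and limits cover counting of peaks only, peaks that lie close together are not independent, and the region was proposed with this overlap in view, so they are no test against the list. In the list, UTX peaks with TAL1 were the wider ones (median 405 bases against 310), and the region's peaks were wide: the list's shares in each quartile of width, applied to the widths of the 100 peaks, give 14.1 peaks with TAL1. The same calculation gives 6.02 for class I, 4.69 for class III and 3.35 for class II. The part of width in the share was not tested.

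Most of the region lay in 1 stretch without TAL1 peaks. From the second TAL1 peak to the next one, at 33872896 to 33873225 beyond the end of the region, 3.39 Mb held no TAL1 peak and 99 UTX peaks. Of those UTX peaks, 90 are members: 32 of class I and every peak of class III and class II. Among the 2654 stretches between neighbouring TAL1 peaks in the genome, this one held the most UTX peaks. It was also among the longer ones, at rank 214 by length. The stretches that came next were at 371957 to 2950065 on chromosome 19 (87 UTX peaks in 2.58 Mb) and at 5826023 to 8802443 on chromosome 17 (69 in 2.98 Mb). All 32 class III peaks lay more than 1 Mb from a TAL1 peak, from 1025 to 1661 kb, as did 5 of 26 class II peaks and 0 of 42 class I peaks. Over the whole UTX list the share beyond 1 Mb was 12.1%. The class III peaks share 1 stretch, and any peak in class III would lie that far from TAL1, so they are not 32 separate observations. The median distance to TAL1 was 202 kb in class I, 1217 kb in class III and 700 kb in class II, against 162 kb over the list.

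A TAL1 count of 2 or fewer was found in 374 of the other 770 windows of 3.8 Mb (48.6%). Of the 64 other windows with 50 or more UTX peaks, 2 held no more than 2 TAL1 peaks, and the median was 8. In windows of the classes' own lengths with at least as many UTX peaks as the class, the median was 3 TAL1 peaks for class I, 1 for class III and 3 for class II. No more TAL1 peaks than in the class were found in 6 of 29 such windows for class I, 0 of 5 for class III and 7 of 77 for class II. Of the 2 UTX-rich windows of 3.8 Mb with few TAL1 peaks, 1 was the window just before the region on chromosome 6, at 25800000 to 29599999, with 91 UTX peaks and 2 TAL1 peaks. The 3.8 Mb after the region held 51 UTX peaks and 11 TAL1 peaks. TAL1 was found at 2.20% of the UTX peaks before the region and at 15.7% of those after it (8 of 51). Many UTX peaks with few TAL1 peaks were thus also seen on the telomeric side of the MHC. On the centromeric side they were not, as its share with TAL1, 15.7%, was above the 12.1% of the whole list. The difference between the sides was not tested.

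Within the region, UTX peaks were concentrated in a few places. Of the 38 bins of 100 kb counted from the region's start, 12 held no UTX peak, whereas 11 bins with 5 or more held 71 of the 100 peaks. The fullest bins, with 9 UTX peaks each, started at 30.5 Mb (class I) and 31.5 Mb (class III). In class III 0 of 7 bins were empty, taking each bin by its midpoint, against 7 of 19 in class I and 5 of 12 in class II. The absence of empty class III bins depends on where the bins fall: a single UTX peak, at 31939575 to 31940506, lay between the peak ending at 31870274 and the one starting at 32095806.

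**Figure D3:**
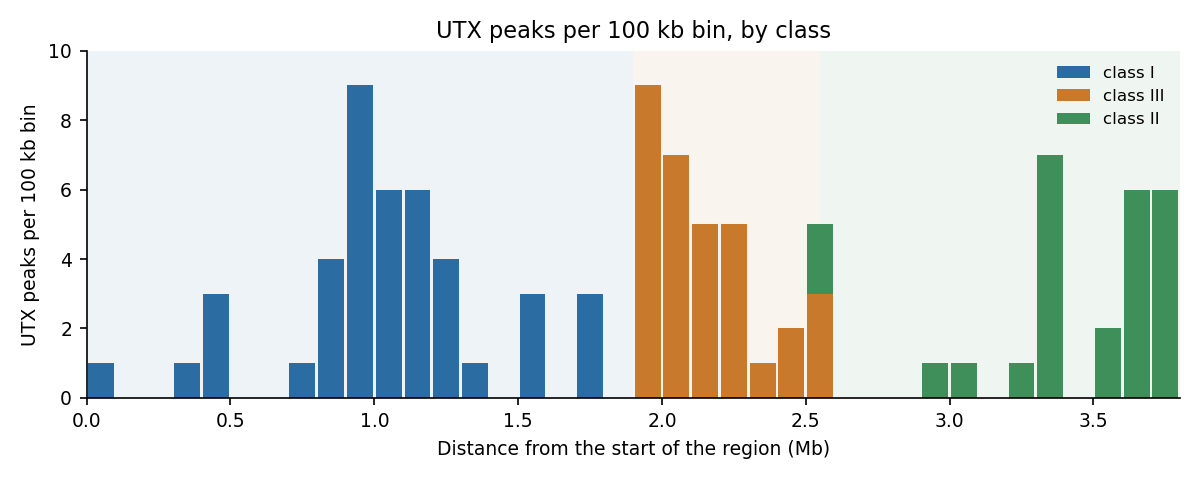
Number of UTX peaks (y axis) in each 100 kb bin by distance from the start of the region in Mb (x axis), coloured by class; 1 bin holds peaks of both class III and class II. The bars form blocks in the middle of class I, along class III and at the end of class II, with 12 empty bins between and around them.

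The stretches described next were picked after their values had been seen. In class I, the first 830 kb held 6 UTX peaks (7.23 per Mb), 1 of them the first TAL1 site. The next 390 kb, from 30.43 to 30.82 Mb, held 27 (69.2 per Mb), covering 4.44% of the bases, and the last 680 kb held 9 (13.2 per Mb). In class II, the first 750 kb, up to 32.9 Mb, held 5 UTX peaks (6.67 per Mb) and the last 500 kb held 21 (42.0 per Mb). The first parts of both classes came close to the 5.41 per Mb of the rest of the chromosome, and most UTX peaks of each class lay in its densest stretch. That of class II was not filled evenly, as it includes a gap of 218 kb, at 32950568 to 33168181.

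The longest gap without a UTX peak was in class II, 430 kb from 32160889 to 32590705. Others followed in class II at 32950568 to 33168181 (218 kb) and 32653682 to 32862404 (209 kb). In the 775 kb from the start of the longest gap to 32936066, 3 UTX peaks were called, 354, 219 and 148 bases wide, the last among the narrowest of the region. In class I the longest gaps were at 30045357 to 30312735 (267 kb) and 29676983 to 29932621 (256 kb). The longest gap inside class III measured 155 kb, at 31940507 to 32095805. Gaps over 100 kb made up 11 of 99 in the region (11.1%) against 32.0% over the list. The median gap was 10.2 kb in the region, 7.22 kb within class III, 13.8 kb within class I and 10.2 kb within class II, against 44.7 kb over the list.

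UTX peaks of the region mostly came in groups. With UTX peaks joined across gaps of up to 10 kb, 75 of the 100 fell into 26 clusters and 25 stood alone, whereas 59.1% of the whole list were single. Class III had the fewest single peaks, 4 of 32 (12.5%), against 13 of 42 in class I and 8 of 26 in class II. Of the clusters, 15 were pairs, 7 held 3 or 4 peaks and 4 held 5 or more. The last kind took 22 of the region's peaks, against 4.94% of the list. Some neighbours lay very close: 22 of the 99 gaps (22.2%) were under 1 kb, against 7.11% over the list, and joining across these gaps left 78 sites, 33 in class I, 25 in class III and 20 in class II.

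The cluster with most peaks was in class II. It held 7 UTX peaks from 32936067 to 32950567, of which 6 lay in a run from 32936067 to 32940398 and the narrowest gap was 52 bases. Its widest peak measured 704 bases, and it was flanked by gaps of 73.5 kb and 218 kb. In class III, clusters of 5 peaks lay at 31697143 to 31708054, with a peak of 1172 bases, and at 31620078 to 31633781, where the widest peak measured 600 bases. The class I cluster of 5 at 30581335 to 30594817 held the widest peak of the region and was called over 31.8% of its length. Next came clusters of 4 peaks, the shorter of which, 9.63 kb at 30684946 to 30694580 in class I, was called over 39.2% of its length. Each of these 5 clusters held 0 TAL1 peaks. With TAL1 at 2 of the region's 100 UTX peaks, that does not set these clusters apart. Of the region's 75 clustered UTX peaks 1 overlapped a TAL1 peak (1.33%), as did 1 of its 25 single ones (4.00%), too few to compare. Over the list the shares were 12.8% of clustered and 11.6% of single UTX peaks.

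UTX peaks of the region were wider than those of the list, above all in class I and class III. The median width was 428.5 bases (quartiles 273.25 and 636.5, n = 100 peaks), against 326 on the rest of chromosome 6 and 320 over the list. An exact binomial interval for the region's median ran from 337 to 485 bases, for counting error only. Class I peaks had a median of 450 bases, class III peaks 441.5 and class II peaks 340, the last close to the list. Of the 100 peaks, 63 were wider than the list's median and 44 were wider than its upper quartile of 457 bases. Since clustered peaks were wider in the list as well (347 bases against 304 for single peaks), widths were also set side by side within each kind: clustered peaks of the region had a median of 447 bases and single ones 354. The classes differed in this: single peaks had a median of 425 bases in class I (13 peaks), 518.5 in class III (4) and 229.5 in class II (8, narrower than the list's), and clustered peaks 475, 428.5 and 355.5. No test across libraries is possible with 1 UTX library.

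**Figure D4:**
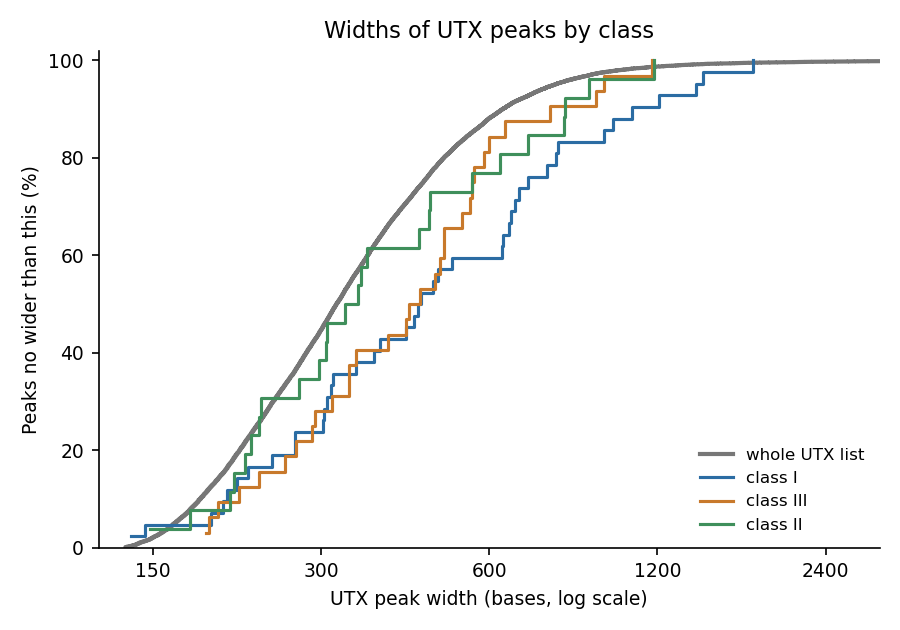
Share of UTX peaks (y axis, %) that are no wider than a given width in bases (x axis, log scale) in each class and in the whole UTX list. The curves of class I (median 450) and class III (441.5) lie to the right of the whole list (320), and that of class II (340) is close to it up to its median.

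Peaks over 1 kb made up 8 of the 100 (8.00%), against 2.15% of the list. Class I held 6 of them, all between 30.43 and 30.82 Mb. The widest, at 30582490 to 30584269, measured 1780 bases and ranked 81 in the whole list. It lay 76 bases from a peak of 1079 bases at 30581335 to 30582413. Peaks of 1449 bases at 30688641 to 30690089 and of 1406 bases at 30692763 to 30694168 were neighbours in the cluster of 4 named above. Peaks of 1209 bases at 30710003 to 30711211 and of 1001 bases at 30782353 to 30783353 completed the class I set. The class II member was a peak of 1183 bases at 33244310 to 33245492, and the class III member one of 1172 bases at 31705655 to 31706826. None of the 8 held TAL1, where 2 of the region's 100 UTX peaks did.

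The 20 widest UTX peaks, down to 704 bases, comprised 11 of class I, 4 of class III and 5 of class II. Of the 20, 14 were in clusters, against 75 of the region's 100 UTX peaks. None of the 20 held a TAL1 peak, where 2 of the 100 did, too few to set the widest apart. The wider of the TAL1-bearing peaks, at 678 bases, came directly after the 20 at rank 21. Other class I peaks of this set lay in the dense stretch, at 30736933 to 30737728 (796 bases), 30650229 to 30651017 (789) and 30524657 to 30525418 (762). A further pair lay outside that stretch, at 31164174 to 31165136 (963 bases) and 31165357 to 31166061 (705). In class III they lay at 31807828 to 31808788 (961 bases), 31939575 to 31940506 (932) and 31707285 to 31708054 (770). The peak of 932 bases stood alone at the left edge of the longest class III gap. In class II they lay at 33239152 to 33240058 (907 bases), 33266931 to 33267750 (820) and 33358931 to 33359747 (817), all in the dense last 500 kb.

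The bounds of the region fell in gaps between UTX peaks. The peaks just inside were at 29676468 to 29676982 (515 bases) and 33388915 to 33389089 (175), and those just outside at 29203719 to 29204197 (479) and 33422119 to 33422576 (458). Between class I and class III the bound fell in a gap of 141 kb, and between class III and class II in one of 11.5 kb, with a peak of 555 bases at 32145776 to 32146330 on the class III side and one of 349 bases at 32157860 to 32158208 on the class II side. The last bound therefore divided UTX peaks that lay near each other.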

How the data were processed

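The authors deposited 3-column peak lists, with chromosome, start counted from 0 and end; other columns such as scores, p-values or counts are not in them. Per the submitters' processing notes, MACS2 2.0.10, BWA 0.6.2 and SAMtools 0.1.18 were used with hg19. Not given in the sources used here are thresholds, the treatment of reads matching several places, the use of the mock and the making of the TAL1 list. Its build was assumed to be hg19 too. All positions count from 1.

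Members, distances (bases between peak edges), clusters, gaps, bins and windows (peaks by centre) were computed with pandas 2.3.3, scipy 1.17.1 and numpy 2.4.6 under Python 3.11.15. Overlap meant at least 1 shared base, and its count was checked with bedtools 2.31.1; the rules were also tested on simulated intervals. Intervals are 95% exact (Clopper-Pearson), and the limit for a count of 0 is 3 counts.

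The region, lists and naming rule (20 widest UTX peaks, all TAL1 sites, 5 largest clusters, 5 longest gaps, boundary peaks) were chosen with earlier results of these data known. The windows and the stretches within classes were added after the counts were seen. No test was run, since 1 library gives no error between samples. RefSeq tables served for gene names and order only, and no sequence is printed because none of this build was used.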

Additional observations from a re-analysis of the deposited data

How the results depend on the processing

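Of 14 values under other settings, over 5 results, 13 stayed within their interval or within 1.5 times the value. The exception was the number of UTX peaks in the region, which was 63 with the wider 50% of the UTX list, a list of fewer peaks, against 100. Several of the 13 could not move. No peak crossed an edge of the region, so placing peaks by their centre left the members unchanged. Both TAL1 peaks lay wholly inside UTX peaks, and the nearest other UTX peak was 6.87 kb away. An overlap of 50% or a distance of 1 kb therefore gave the same share. The UTX peaks with TAL1 lay on either side of the median width, so leaving them out did not move it. The share of UTX peaks with TAL1 ranged from 1.59% (1 of 63, with the wider 50%) to 3.0% (within 10 kb), and was 2.70% (3 of 111) with the region widened by 500 kb at both ends. The whole list's 12.1% is for the main setting, and its shares under the other settings are not given here. The median width was 425 bases in the widened region. Clusters numbered 22 when joined across 5 kb and 26 across 20 kb. No paired analysis was possible because only 1 immunoprecipitated library entered. Depth is unknown for both lists, so an absent peak may lie below an unknown threshold.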
